A study of Homo sapiens with 4 samples.

Results

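The regions described here are the 3′-most PRMT5 RIP-seq peaks of genes that carried many peaks. Among the peaks assigned to 1 gene identifier, every identifier with at least 4 peaks on 1 chromosome and strand was taken, and the peak reaching farthest toward the 3′ end was kept if it was 26 to 5000 nt wide. Of 18993 peaks in the list, 17355 had 1 identifier. These peaks belonged to 7980 identifiers, of which 1320 had 4 or more. The 3′-most peak was only 25 nt wide in 294 of the 1320 and wider than 5000 nt in 55, which left 971 members. The choice used position, width and the number of peaks, and no level of enrichment directly. The peaks counted were themselves called against input, so the number of peaks depends on enrichment.

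The RIP-seq addressed whether PRMT5 binds RNA in a T cell line, and at which positions. Jurkat cells, an established human T cell leukemia line, were stimulated with PHA, a lectin that activates T cells, for 48 h and crosslinked with UV light, for which the labels give 264 nm and 400 mJ while the study's methods give another wavelength. The groups sequenced were 2 PRMT5 RIP libraries and 2 input libraries, and the series' design text names FLAG as the target of the immunoprecipitation. The study's RIP methods list antibodies to PRMT5 and to FLAG, among others, so which was used for these libraries is not settled here. All 4 libraries came from stimulated, crosslinked cells of 1 line, and neither an unstimulated sample nor an immunoprecipitation without PRMT5 was analysed here. The list holds 1 pooled level per peak for PRMT5 RIP and 1 for input, each in RPM, that is, reads scaled to library size, so no spread between replicates, no test and no depth per library can be given. The list holds peaks that the authors called against input, so that a level above input at most of them was set by the choice. Of 15 T cell markers checked, 10 had at least 1 peak, among them CD3D, CD3E, CD3G and LCK, and of 8 markers of other blood cells 2 did, the B cell gene CD79A and the macrophage gene CSF1R. This is a check on called peaks, not on expression.

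PRMT5 is the arginine methyltransferase that places symmetric dimethyl marks on its substrates, and WDR77 is its constant partner. The end of an mRNA is where cleavage and polyadenylation occur, and the 3′ untranslated region upstream of it holds the sites, AU-rich elements among them, through which RNA-binding proteins and microRNAs set how long an mRNA lasts. A 3′-most peak in the sense used here is the last called peak of a gene, which need not lie in a 3′ untranslated region, and exons and untranslated regions were not annotated here.

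The sequences of features under some members show what else a peak covered. The member of SERF2 at chr15:43793679-43794053 on the plus strand (hg38) held mature miR-1282, which is encoded on the opposite strand. Its sequence is from RefSeq (GRCh38.p14), with the seed, bases 2 to 8, in capitals.
hsa-miR-1282: uCGUUUGCcuuuuucugcuu

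Other members lay across the start of a neighbouring gene on the opposite strand. Shown are, also from RefSeq, 30 bases around 3 such starts that were wholly inside a member, written 5′ to 3′ on the strand of the neighbour, with the transcribed bases in capitals and the 15 bases before the RefSeq start in lower case. CNPY2 starts at chr12:56315974-56316003 (minus strand), NT5C at chr17:75131728-75131757 (minus strand) and ICAM3, an adhesion molecule of leukocytes, at chr19:10335786-10335815 (minus strand). All 3 members belonged to identifiers without a symbol in the tables used.
CNPY2 start: caggggagctgggtcAGGCGGTCGCCGGGA
NT5C start: gagcccgcgccccccAGACCCCGAGAGCTC
ICAM3 start: gagccagcggaggtcACTGCCACTGTGCTG

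The members were somewhat narrower than the peaks of the whole list and, as a group, lower in ratio. Their median level was 2.26 RPM in PRMT5 RIP (quartiles 0.895 and 5.75) and 1.10 RPM in input (quartiles 0.40 and 3.21), at a median width of 225 nt, where the median width of all peaks was 275 nt. The log2 ratio of PRMT5 RIP to input, taken with 0.01 RPM added to both, had a median of 0.96 with quartiles of 0.57 and 1.39, beside 1.10 (0.62 and 1.67) over all 18993 peaks. PRMT5 RIP was at least 2 times input in 468 members, or 48.2%, beside 56.6% of all peaks. All peaks 26 to 5000 nt wide, the limits the members had to meet, had a median width of 289 nt and a median ratio of 1.17. Of these, 59.5% reached 2 times input. With only peaks of at least 0.5 RPM in input kept, the share was 27.0% of the 455 members then found, beside 44% of all such peaks. The median ratio of the members was 0.47 with 1 RPM added in place of 0.01. PRMT5 RIP was below input in 34 members, or 3.50%, beside 3.84% of all peaks. The peak caller's own log2 fold change was below 0 in 1 member, CRAMP1, beside 0.0858% of the 18643 peaks that have one, and it was above 0 for the other 33 members. Ratios ran from -0.94 to 3.66. The 482 members on the plus strand and the 489 on the minus strand had medians of 1.00 and 0.93. Of the members, 920 received a symbol, 902 from protein-coding genes and 17 from long noncoding RNA genes, whose median ratio was 0.74. The 51 without a symbol had a median of 1.33, and 54.9% of them overlapped a peak on the other strand, against 16.5% of all members. Chromosome 19 held the most members, 124 or 12.8%, where it held 9.96% of all peaks, followed by chromosomes 1 and 17 with 96 each.

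**Figure D1:**
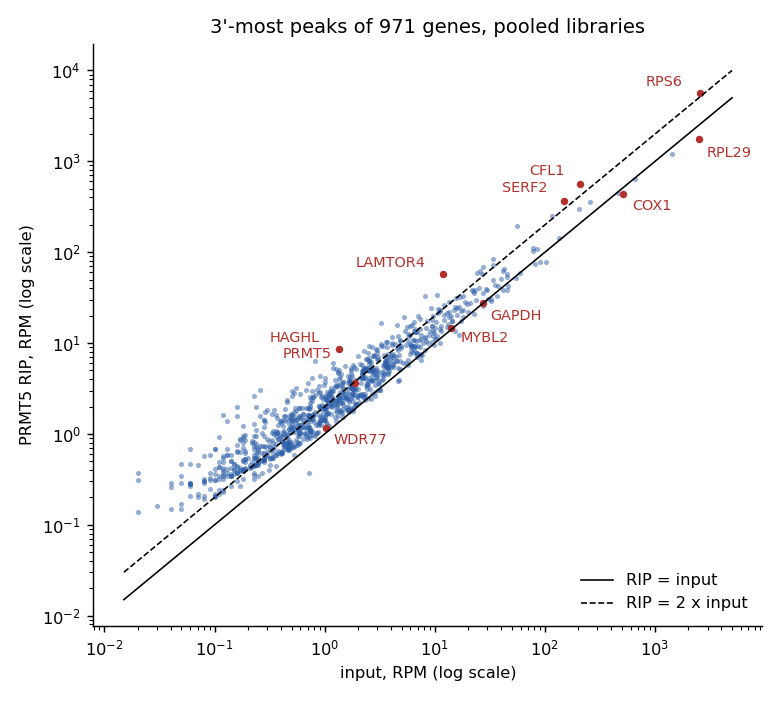
Pooled PRMT5 RIP level against pooled input level of each of the 971 members, in RPM per peak on log scales, with the labelled genes in red. The solid line marks equal levels and the dashed line 2 times input. Most points lie between or above the lines, and GAPDH, COX1 and RPL29 lie near or under the solid line.

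Peaks just inside and just outside the limits of the rule overlapped in ratio. The narrowest members were those of COX1 at 42 nt and then many of 50 nt, and the 294 peaks of 25 nt left out had a median ratio of 0.79 and a median PRMT5 RIP level of 0.25 RPM. One of these was the 3′-most peak of PDCD1, the gene of the receptor PD-1, with 0.23 RPM after PRMT5 RIP against 0.11 RPM of input, a ratio of 1.00. At the other limit, the members of IKBKG at 4871 nt and BRD9 at 4916 nt had ratios of 1.88 and 1.06, and the peaks of TACC3 at 5081 nt and SF3B2 at 5168 nt, just outside, had 1.45 and 0.21. The 55 peaks wider than 5000 nt had a median ratio of 0.83. Genes with 3 peaks, just short of the number required, gave 764 peaks of the same widths with a median ratio of 0.98, where the 445 genes with 4 peaks gave 0.94.

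Within their genes the members differed from the peaks at the other end and from those in between. The 971 genes held 4931 peaks, 4 to 15 each with a median of 5, and 2989 of these lay between the ends. The 5′-most peaks of the same genes had a median ratio of 1.42 and 72.5% of them reached 2 times input. For the 5′-most peaks that were 26 to 5000 nt wide these values were 1.48 and 75.4%. The peaks between the ends had a median ratio of 0.85 and 42.5% reached 2 times input. The 3′-most peaks therefore took a middle place, with a ratio lower than that of the 5′-most peak in 667 genes (68.7%) and higher than the median of the peaks between in 548 genes (56.4%). The median difference from the 5′-most peak, 5′ minus 3′, was 0.47 (quartiles -0.17 and 1.05), and that from the peaks between, 3′ minus between, was 0.08 (quartiles -0.29 and 0.48). The second difference was smaller with the width limits applied to every peak before the ends were chosen, at 0.035 over 693 genes, and peaks between the ends that were 26 to 5000 nt wide had a median ratio of 0.90.

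**Figure D2:**
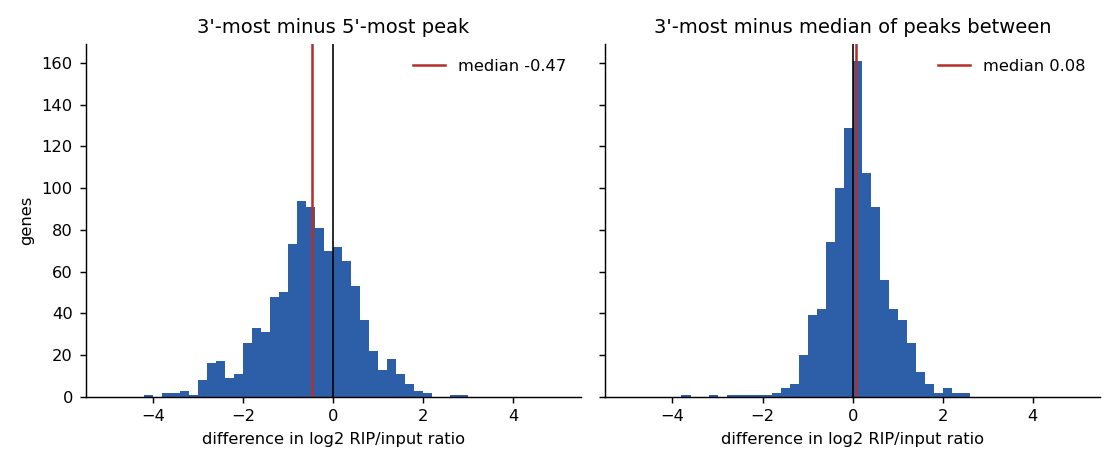
Difference in log2 ratio of PRMT5 RIP to input between the 3′-most peak and the 5′-most peak of the same gene (left) and between the 3′-most peak and the median of the peaks between the ends (right), for 971 genes. The vertical axis counts genes, the black line marks 0 and the red line the median, which lies at -0.47 on the left and at 0.08 on the right.

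The order along the gene showed the same shape in genes of 4, 5, 6 and 7 peaks. In the 74 genes with 7 peaks the median ratio was 1.45 at the first peak, 0.84 at the second, between 0.74 and 0.81 at the next 4, and 0.97 at the last. In the 131 genes with 6 peaks it went from 1.38 at the first peak to 0.75 at the third and 1.00 at the last. In the 261 genes with 5 peaks and the 445 with 4, the last peak had medians of 0.94 and 0.94, and the peak before it 0.84 and 0.83. With the width limits applied to every peak, the peak before the last had medians of 0.79, 0.81, 0.90 and 0.85 in genes of 7, 6, 5 and 4 peaks. The difference between the last peak and those between the ends was 0.14 in the 265 genes with 6 or more peaks, and 0.05 in the 706 genes with 4 or 5.

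Input density was higher toward the 3′ end. The median input level was 5.0 RPM per kb at the 3′-most peak, 3.6 at peaks between the ends and 1.8 at the 5′-most peak. In PRMT5 RIP the medians were 10.6, 8.4 and 6.59 RPM per kb. Among peaks 26 to 5000 nt wide, the limits the members had to meet, input medians were 3.4 between the ends and 2.4 at the 5′-most peak, while those of PRMT5 RIP were 8.0 and 8.53, so the order of these groups turned in PRMT5 RIP and the members stayed highest. The 3′-most peak had the highest input per kb of its gene in 286 genes (29.5%) and the highest PRMT5 RIP per kb in 254 (26.2%), where 3′-most peaks made up 19.7% of the peaks of these genes. It held the lowest ratio of its gene in 193 genes (19.9%) and the highest in 175 (18.0%). A median of 17.8% of the input RPM of all peaks of a gene lay in the 3′-most peak, and 17.2% of the PRMT5 RIP RPM. The gap to the next peak upstream had a median of 255 nt. It was at most 100 nt in 353 genes and over 1000 nt in 309.

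The ratio moved with the level of input, among members as among all peaks. Over members the rank correlation of ratio with input RPM was -0.55 (n = 971), and over all peaks -0.45 (n = 18993). Input RPM is the denominator of the ratio and enters both measures. The 45 members with up to 0.1 RPM in input had a median ratio of 1.93, the 261 members with 1 to 3 RPM had 0.89, and the 38 members over 30 RPM had 0.21. In the class of 1 to 3 RPM, the 5′-most peaks of the same genes had 1.37 and the peaks between 0.78. Over 30 RPM the medians were 0.65 and 0.36 for these groups, and 0.62 for all peaks. In the 277 genes whose end peaks had input levels within 2 times of each other, the 3′-most peak had the lower ratio in 180 (65.0%). The share was 81.0% in the 389 genes whose 3′-most peak had at least 2 times the input of the 5′-most. It was 56.1% in the 312 genes where the 5′-most peak had at least 2 times the input of the 3′-most. Between the member's ratio and the median ratio of the peaks between the ends, Pearson's r was 0.41 and Spearman's rho 0.44. For the 5′-most peak they were 0.13 and 0.13. Both are across 971 genes, which share 2 pools of reads and are not independent replicates. The first is with a median over peaks and the second with a single peak, so the values cannot show which the member follows more closely.

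Many members lay near the annotated end of their gene, and many did not. Among the 920 with a RefSeq gene, the 3′ edge of the peak was a median of 748 nt upstream of the gene end (quartiles 249 and 3575 nt). It was within 500 nt of the end in 381 (41.4%), exactly at the end in 14, past it in 9 and more than 20000 nt upstream of it in 66. Peaks between the ends were within 500 nt of the gene end in 4.30%. The rule itself took the peak farthest toward the 3′ end, so a higher share among members was set by the choice. In 30.5% of members this distance was a multiple of 25 nt, as was the width in 65.6% of members and 53.0% of all peaks. The median ratio was 0.73 in the 94 members 0 to 100 nt from the end and 1.11 in the 66 members over 20000 nt away. Over the same range the median input level went from 17.1 to 2.6 RPM per kb. Among members with input of 0.3 to 3 RPM the medians were 0.97 up to 500 nt from the end, 0.93 from there to 5000 nt and 0.92 beyond.

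Among members with at least 1 RPM in input, the highest ratios belonged to genes of varied function. The member of HAGHL, a gene related to the glyoxalase that clears methylglyoxal, had 8.56 RPM after PRMT5 RIP against 1.34 RPM of input, a ratio of 2.67, and ended 98 nt before the gene end. IFI27L1, related to an interferon-induced gene, had 6.09 and 1.19 RPM (2.35), with its edge exactly at the gene end. LAMTOR4, a subunit of the Ragulator complex on lysosomes, had 56.84 and 11.76 RPM (2.27). These 3 genes had high ratios over their whole length, with medians of 2.47, 2.03 and 2.93 at the peaks between the ends. The mitochondrial carrier SLC25A35, described below for its contrast, had a ratio of 2.14, TMEM8B 2.03, MRPL4, a protein of the mitochondrial ribosome, 2.01, the homeobox gene IRX3 2.01 and IKBKG, the regulatory subunit of the IκB kinase complex, 1.88. IKBKG has a near-identical pseudogene copy, so that the assignment of its reads is uncertain.

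The lowest ratios among members with at least 1 RPM in input included genes of translation, RPL29, EIF3I and RPS21. RPL29, a protein of the large ribosomal subunit, had 1740.48 RPM after PRMT5 RIP against 2529.58 RPM of input at chr3:51993622-51994316, a ratio of -0.54, and this peak held 84.1% of the input RPM of its gene. BOLA2B, with near-identical copies that make its level uncertain, had -0.45. CHI3L2, a chitinase-like protein, had 77.5 and 101.44 RPM (-0.39). EIF3I, a translation initiation factor subunit, and UBE2D3, a ubiquitin-conjugating enzyme, had -0.28 and -0.26. RPS21 had -0.24, and COX1, a respiratory chain subunit encoded in the mitochondrial genome, had -0.21. By the peak caller's log2 fold change, all of these named members were above 0, so whether they lie below input depends on the measure. Of all 34 members with PRMT5 RIP below input by RPM, 33 had at least 1 RPM in input, where the median input of all members was 1.10 RPM. Of the 33 with a symbol, 25 lay within 500 nt of the gene end, beside 41.4% of the 920 members with a RefSeq gene. The ratio fell with input and input was highest near gene ends, and whether position mattered apart from input was not tested. In 9 of the 34 genes the 3′-most peak was the only one below input, and in 1 every peak was.

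Highest in PRMT5 RIP per kb were COX1 (10468.3 RPM per kb, against 12146.2 in input), RPS15 (5134.08 against 5272.72), RPL29 (2504.29 against 3639.68), RPS6 (2100.11 against 953.154) and FAU (1791.6 against 1276.2), which encodes a ribosomal protein fused to a ubiquitin-like domain. RPS6 stood apart from the other 4, with a ratio of 1.14 against 0.49 for FAU and values below 0 for the rest. Its 2689-nt member held 83.8% of the input RPM of the gene. Ribosomal protein genes have many processed pseudogenes, so their levels are uncertain.

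The genes with the largest contrast between their ends showed the difference in both directions. In MYBL2, a transcription factor of the cell cycle, the 5′-most peak was 14711 nt wide, beyond the limit that members had to meet. It had 29.4 RPM after PRMT5 RIP against 2.18 RPM of input, a ratio of 3.75. The 3′-most peak had 14.67 and 14.06 RPM, a ratio of 0.06. The 3 peaks between had ratios of 0.55, -0.21 and 0.15, so the last peak resembled them and not the first. RNASEH2B, a subunit of ribonuclease H2, went from 3.50 to 0.77, MYL6, a myosin light chain, from 3.07 to 0.35, PDCD5, a gene linked to programmed cell death, from 2.41 to -0.21, and TPM4, a tropomyosin, from 3.66 to 1.09. The reverse order was seen in SLC25A35 (0.27 at the 5′-most and 2.14 at the 3′-most peak), IKBKG (0.36 and 1.88), WDR46 (0.29 and 1.51) and PMPCA, a subunit of the mitochondrial processing peptidase (0.30 and 1.49). Among these genes, the 5′-most peaks of RNASEH2B, TPM4, SLC25A35 and IKBKG overlapped a peak on the other strand. The member of PMPCA had 8.34 RPM after PRMT5 RIP and 2.96 of input, and held 34.0% of the input RPM of its gene.

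The genes with the most peaks were SPTBN1, SEPTIN9, GPR137 and BRF1, and then MYH9, SF3A1 and SPTAN1, which tied at 11 peaks. SPTBN1, a spectrin, had 15 peaks and its member had 0.59 RPM after PRMT5 RIP against 0.23 RPM of input (ratio 1.32). SEPTIN9, a cytoskeletal GTPase, had 13 peaks (2.43 and 1.03 RPM, 1.23), GPR137 12 (0.8 and 0.59 RPM, 0.43) and BRF1, a factor of RNA polymerase III, 12 (0.53 and 0.19 RPM, 1.43). At 11 peaks, SPTAN1, another spectrin, had 0.45 and 0.23 RPM (0.94), MYH9, a nonmuscle myosin heavy chain, 0.73 and 0.54 RPM (0.43) and SF3A1, a splicing factor subunit, 5.11 and 2.58 RPM (0.98). The member of SF3A1 was 2481 nt wide and the other 6 were 50 to 175 nt wide. The 5′-most peak had the lower ratio in SPTBN1 and SF3A1, at 0.38 and 0.48, and the higher one in the other 5 genes.

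The 8 gene lists of the design were followed, and their counts are set against 48.2% of members at 2 times input and a member median of 0.96. Counts of genes with a lower ratio at the 3′-most than at the 5′-most peak are set against 68.7% of all member genes. Among genes for translation and ribosomal proteins, 21 had 4 or more peaks and 15 were members. Of these members 3 reached 2 times input, 6 were below input and the median ratio was 0.42. Most ribosomal protein genes entered this list by the form of their symbol, so no list total is given, unlike for the other lists. In 13 of the 15 the 3′-most peak had a lower ratio than the 5′-most, and the medians at the 5′-most peaks and between the ends were 1.48 and 0.64. Their median input was 45.59 RPM, beside the 38 members over 30 RPM of any function with a median ratio of 0.21. RPL31 had 104.05 and 77.66 RPM (0.42), RPL22 58.94 and 23.91 RPM (1.30) and RPS9 251.87 and 115.81 RPM (1.12). EIF3C and NPM1, the nucleolar protein nucleophosmin, had -0.17 and -0.04, and EIF3C has a near-identical copy.

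Of 50 genes for the cytoskeleton and motors, 12 had 4 or more peaks, 11 were members, 3 reached 2 times input and the median was 0.89. CFL1, which encodes the actin-severing protein cofilin, had 563.44 RPM after PRMT5 RIP against 207.1 RPM of input (1.44), and its member held 95.5% of the input RPM of the gene. TUBA1A, a tubulin, had 142.33 and 133.62 RPM (0.09), FLNA, an actin crosslinker, 15.4 and 11.49 RPM (0.42) and MYO1G, a myosin of blood cells, 2.1 and 1.46 RPM (0.52). CFL1 alone of these 4 was above 2 times input.

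The 61 splicing factors gave 21 genes with 4 or more peaks and 15 members, of which 6 reached 2 times input, with a median of 0.97 and the 3′-most peak lower than the 5′-most in 8. The 4 with the highest input per kb were HNRNPF (13.4 and 9.62 RPM, 0.48), HNRNPA2B1 (7.05 and 3.74 RPM, 0.91), HNRNPA3 (8.83 and 4.49 RPM, 0.97) and PTBP1 (1.59 and 1.32 RPM, 0.27), all RNA-binding proteins of pre-mRNA processing. Ratios on the list ran from 0.27 to 1.87.

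The 51 genes of the T cell receptor and costimulation gave 7 members, of which 3 reached 2 times input, with a median of 0.73, and 8 more many-peak genes of the list were left out by width. CD7, a T cell surface protein, had 29.58 RPM after PRMT5 RIP against 23.85 RPM of input (0.31) with its edge 20 nt from the gene end. PTPN6, a phosphatase that dampens receptor signaling, had 15.54 and 9.39 RPM (0.73), CD247, the receptor's zeta chain, 4.5 and 2.71 RPM (0.73), and ZAP70, the kinase recruited to it, 53.67 and 45.54 RPM (0.24). The peak of ZAP70 was 4121 nt wide and ended 16789 nt before the annotated gene end. Ends of single transcripts were not annotated here, so whether this peak reached the end of a transcript is not known. CD6, CSK and RELA, with input of 0.5, 0.33 and 0.32 RPM, had 1.36, 1.36 and 1.04.

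The 63 chromatin and transcription coregulators gave 11 genes with 4 or more peaks and 8 members, of which 3 reached 2 times input, with a median of 0.93. In 7 of the 8 the 3′-most peak had the lower ratio of the ends, beside 68.7% of all member genes. ARID1A, a subunit of SWI/SNF remodelers, had 7.09 and 6.82 RPM (0.06) at a peak 49417 nt before the gene end, against 2.80 at its 5′-most peak. SMARCC1, of the same complexes, had 0.58, CHD3, a remodeler of the NuRD complex, 1.12 and BPTF, of the NURF remodeler, 1.66.

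Of 41 genes with AU-rich or short-lived mRNAs, 4 had 4 or more peaks and 2 were members: CCND3, a cyclin, with 9.25 and 4.77 RPM (0.95) 51 nt from its end, and ZFP36L2, which binds AU-rich elements, with 0.94 and 0.36 RPM (1.36). Of 68 genes for 3′ end processing and mRNA decay, 6 had 4 or more peaks and 4 were members: PABPC4, a poly(A)-binding protein (4.13 and 2.97 RPM, 0.47), UPF1, the helicase of nonsense-mediated decay (0.58 and 0.36 RPM, 0.67), CPSF4, a cleavage factor subunit (0.67 and 0.25 RPM, 1.39), and KHSRP, a decay-promoting protein that binds AU-rich elements (0.34 and 0.11 RPM, 1.54). In 3 of these 4 the 3′-most peak was lower in ratio than the 5′-most, with KHSRP as the exception.

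The list of PRMT5 and its partners, 15 genes, gave 4 members. PRMT5 had 3.61 RPM after PRMT5 RIP against 1.89 RPM of input at chr14:22920900-22921049 (0.93), a 150-nt peak that overlapped a peak on the other strand. Its middle peaks, with 38.7 and 37.64 RPM and with 34.1 and 33.63 RPM, had ratios of 0.04 and 0.02, so both end peaks of the gene stood above its middle. PRMT2 had 3.84 and 1.75 RPM (1.13), PRMT6 1.32 and 0.4 RPM (1.70) and WDR77 1.16 and 1.03 RPM (0.17), these also being methyltransferases except for WDR77. GAPDH, the glycolytic enzyme, had 27.28 and 27.42 RPM in a 50-nt member 6 nt from its end, a ratio of -0.01. Of other genes the study names, AGO2, IGF2BP3 and SMC2 had fewer than 4 peaks under their symbol and gave no member.

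A small number of members reached beyond their gene or into another. The member of PKIG, an inhibitor of protein kinase A, lay farthest past the annotated end, by 5210 nt, with 38.42 RPM after PRMT5 RIP and 29.86 in input (0.36). It lay inside the convergent gene ADA, under a peak of ADA with 415.42 and 150.91 RPM on the opposite strand, and held 80.7% of the input RPM assigned to PKIG. UBXN11 ended 954 nt past its end (77.69 and 89.86 RPM, -0.21), over the end of SH3BGRL3 on the opposite strand, where that strand's peak had 303.74 and 281.96 RPM. ADA, the adenosine deaminase of purine metabolism, ended 917 nt past its end (1.58 and 0.44 RPM, 1.82), over the fourth peak of PKIG, with 4.02 and 1.99 RPM. All 3 overlapped a peak on the other strand, so reads of the 2 strands cannot be told apart there if counting ignored strand. Across the members, 13 or 1.34% held the end of an annotated gene on the opposite strand, beside 0.82% of all peaks of the same widths. The median ratio of the 13 was 0.69, and 12 of them overlapped a peak on that strand. Among all peaks of the same widths, 111 held such an end, with a median ratio of 0.78, and 93 of these overlapped a peak on the other strand.

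Bases of the start window of an opposite-strand gene, 250 before to 50 after its RefSeq start, were held by 15 members, or 1.54%, beside 16.25% of the 5′-most peaks and 9.42% of all peaks of the same widths. The median ratio of the 15 was 1.69, and 13 of them overlapped a peak on the other strand. The member over the start of CNPY2 had 16.57 RPM after PRMT5 RIP against 3.22 RPM of input (2.36), and the peak on the strand of CNPY2 had 40.14 and 15.66 RPM. The member over NT5C had 19.41 and 5.23 RPM (1.89) beside 35 and 12.41 RPM on the other strand, and the one over ICAM3 27.9 and 20.84 RPM (0.42) beside 81.74 and 56.2 RPM. The member of SLC25A35, the gene with the reverse contrast described above, held 32 bases of the start window of RANGRF, whose strand carried a peak of 22.27 and 8.5 RPM. Whether opposite-strand reads entered these levels was not tested.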

How the data were processed

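The deposited list holds 1 RPM value per peak for PRMT5 RIP and 1 for input, pooled by the authors over 2 libraries each and rounded to 0.01. The authors' peak caller also gave a log2 fold change and an FDR, a corrected p-value, which the authors computed against input. These were used here only as an alternative measure and an alternative filter. The submitters' processing notes name fastp, HISAT2 and hg38; the peak caller and strand handling in counting are not given in the sources used here. The kit is directional. Every multiple of 0.01 occurred among low RPM values, and read depth is unknown.

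The log2 ratio was computed with a pseudocount of 0.01 RPM. Symbols came from a supplementary table (113 members) and otherwise from the RefSeq annotation of GRCh38.p14, by position and strand (682) or position only (125). For 156 identifiers named both ways, 155 names were the same. Starts count from 1. The members, lists and rules were chosen with earlier results of these data known. Named were, among members with a symbol, the 8 highest and 8 lowest ratios and the 5 largest end contrasts each way (input of at least 1 RPM), the 5 highest in PRMT5 RIP per kb, the 5 genes with most peaks (7 with ties), the 4 members per list with the highest input per kb, the 3 farthest past their gene end, and genes the study names; other genes were picked with their values in view, and some genes that the rule names are not reported here. The rule was checked on simulated peaks. Sequence motifs of the peaks were not analysed here. Python 3.11.15, pandas 2.3.3, numpy 2.4.6, scipy 1.17.1 and matplotlib 3.10.9 were used.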

Additional observations from a re-analysis of the deposited data

How the results depend on the processing

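No paired analysis was possible because the list holds 1 pooled value per peak for PRMT5 RIP and 1 for input; for the same reason no replicate could be left out and no error between replicates stands behind any value. The cause of each shift was not tested, unless the setting itself shows it. A value was taken as unmoved within its 95% binomial interval, and a count within 1.5 times.

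The 971 members became 455 with input of at least 0.5 RPM for every peak, 1735 with 3 or more peaks and 265 with 6 or more. The median ratio was 0.86 with a pseudocount of 0.1 RPM, 0.47 with 1 RPM, 1.73 with the peak caller's log2 fold change and 0.65 with input of at least 0.5 RPM, where 27.0% of members reached 2 times input. The 3′-most peak was lower than the 5′-most in 62.4% of genes with a pseudocount of 1 RPM, and in 66.4% to 71.5% under the 11 other settings. The difference from the peaks between kept its sign under 12 settings, at 0.14 with 6 or more peaks and 0.034 with no limit on width. The share of genes with the lowest ratio at the 3′-most peak was 16.8% and 14.2% with pseudocounts of 0.1 and 1 RPM, 29.4% and 9.06% with 3 or more and 6 or more peaks, 22.9% with no limit on width, and 23.7% with the width limits on every peak, a setting chosen after seeing the data. The share with the highest input per kb was 33.2% with input of at least 0.5 RPM, 34.8% and 17.7% with 3 or more and 6 or more peaks, 32.6% at widths up to 1000 nt and 24.9% by RPM per peak. Under the 3-peak and 6-peak settings the 3′-most peak is 1 of fewer or of more peaks, which by itself shifts both shares. In the main set 3′-most peaks made up 19.7% of the peaks, and this figure was not computed for these settings. The share within 500 nt of the gene end was 48.6%, 36.4% and 45.5% under the input, 3-peak and 6-peak settings and 38.0% without overlaps on the opposite strand, and a window of 100 nt or 1000 nt gave 10.8% or 55.2%.

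The peak caller's log2 fold change was above 0 for 11 named members with a ratio below 0: RPL29 0.50, BOLA2B 0.36, CHI3L2 0.35, EIF3I 0.44, UBE2D3 0.47, RPS21 0.55, COX1 0.91, RPS15 0.68, PDCD5 0.52, UBXN11 0.63 and GAPDH 0.71. How the peak caller scaled its fold change is not given in the sources used here, so whether PRMT5 RIP lies below input at these peaks depends on the measure.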
